A study of Mus musculus with 4 samples.

Results

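The genes of sterol and fatty acid synthesis, their SREBP regulators and the genes of sterol efflux were examined in LICs of the murine MLL-AF9 model. The 33 genes were chosen by name for their roles in the pathway, and all 33 were found among the 27179 genes of the deposited values. They comprise 5 regulators, 18 enzymes of cholesterol synthesis, 1 sterol carrier, 5 genes of fatty acid synthesis and desaturation, and 4 genes of LXR and sterol efflux. Values are FPKM, which scale reads by gene length and by mapped reads, so that levels can be set side by side per length.

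The data comprise 4 RNA-sequencing libraries from bone marrow of C57BL/6 mice aged 6 weeks by the labels, 2 labelled WT and 2 labelled CD274-/- (CD274-null below). In both groups the leukemia was raised by retroviral MLL-AF9, a fusion oncogene delivered together with YFP, in Lin- fetal liver cells that were transplanted into lethally irradiated C57BL/6 mice. CD274-null cells derive from knockout mice on the same background, so the deletion preceded the leukemia. The recipients' marrow can retain host cells, and a sort on YFP is not stated for the RNA. The labels give FACS-sorted leukemia stem cells, and the study names LICs, defined as Mac-1+/c-Kit+ cells, as the cells sequenced. Its methods state that sort for quantitative RT-PCR and name RNA from a weighed amount of tissue for the sequencing libraries. The sources used here do not say whether the libraries of a group came from separate mice. The p-values therefore measure the spread between libraries, which need not be the spread between mice. Xist differed widely between the WT libraries and the Y-linked genes between the CD274-null libraries, as given below.

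Library depth and identity were checked first. Whole reads recovered from the FPKM values summed to between 8452662 and 11048767 per library. A factor common to all libraries is lost in the recovery, so these and all read numbers below are lower bounds. Cd274 did not separate the groups, with an FPKM of 2.80 and 0.945 in the libraries labelled WT against 1.43 and 2.29 in those labelled CD274-null, so every direction below rests on the labels alone. Of the sort markers, Itgam (Mac-1) lay between 100 and 174 FPKM in the 4 libraries, and Kit was 6.59 in WT replicate 1 against 16.2 to 19.5 in the others. Of 4 further genes of myeloid and MLL-AF9 leukemia cells, Cd33 was called lower, at 199.9 and 234 FPKM in WT against 69.7 and 67.9 in CD274-null, and Mpo was called higher, at 444 and 403 against 1427 and 925, while Hoxa9 and Meis1 were not called. The call of Mpo was lost without the filter and without moderation of the variance. The summed FPKM of 7 neutrophil markers was 42034 in WT replicate 1 and 8391 in WT replicate 2, and lay between 17562 and 30523 in the CD274-null libraries. Of 8 B and plasma cell markers, 4 were listed at 0 in both WT libraries. The summed FPKM of the 8 was 21.9 and 45.0 in WT against 263 and 239 in CD274-null, mostly from Igkc and Cd79b. Igkc (8.64 and 7.98 against 214 and 189) and Jchain (0.370 and 0.514 against 12.3 and 10.5) were called higher, while Cd79b overlapped between groups. The part of these cell types in the values below was not tested. Xist was 2.57, 51.1, 107 and 68.7 FPKM in the order WT 1, WT 2, CD274-null 1 and CD274-null 2. The summed FPKM of 4 Y-linked genes was 86.0, 66.2, 0.0460 and 29.4 in the same order. Xist was thus higher and the Y-linked sum lower in both CD274-null libraries, but each also differed widely within a group. WT replicate 2 and CD274-null replicate 2 showed both Xist and the Y-linked genes. Whether male and female cells were mixed was not tested.

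Cholesterol is built from acetyl-CoA through mevalonate, isoprenoids, squalene and lanosterol, in the endoplasmic reticulum and cytosol. SREBP2, the product of Srebf2, and SREBP1, the product of Srebf1, are membrane-bound transcription factors of the synthesis genes. SCAP carries them to the Golgi, where they are cleaved, when sterols are low, and INSIG proteins hold SCAP back when sterols are high. The LXR receptors act on the other side: they are activated by oxysterols and induce the efflux transporters ABCA1 and ABCG1. Dividing cells, leukemia cells included, need sterols and fatty acids for new membranes.

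The promoters show which sequence elements stand before these genes. SREBPs bind the sterol regulatory element, here searched as TCACNCCAC on both strands, together with NF-Y, which binds CCAAT. In the RefSeq promoters of GRCm38.p6, each running from 250 bases before to 50 after a start, 26 of the 33 genes had an entry, with 35 promoters in all. The sterol regulatory element was found in 1 of these 35 promoters, against 1.24% of all 32851 promoters of the same length. CCAAT was found in 21 of 35 promoters, belonging to 20 genes, against 37.4% of all promoters. The GC box GGGCGG, which Sp1 binds, was found in 25 of 35, belonging to 21 genes, against 35.7%. The LXR element, a direct repeat of AGGTCA with 4 bases between, was found in none of them and in 0.0152% of all promoters. These matches are exact letters in a short window and do not show binding, and a missing match does not show that an element is missing. Sqle, Fdps and Stard4 were among the genes without an entry.

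Below are 3 of these promoters, the 250 bases before the start, 5′ to 3′ on the strand of the gene, in GRCm38.p6. Hmgcs1 (chr13:119690101-119690350, plus strand) is shown because it holds the single sterol regulatory element, at position -137 from the start, with CCAAT at -237, -176 and -45. Sc5d (chr9:42264301-42264550, minus strand) and Ebp (chrX:8193513-8193762, minus strand) are shown because they encode consecutive enzymes whose values separated the groups in opposite directions, without either gene being called. Capitals mark the sterol regulatory element and CCAAT, the latter read as ATTGG where it lies on the other strand.
Hmgcs1: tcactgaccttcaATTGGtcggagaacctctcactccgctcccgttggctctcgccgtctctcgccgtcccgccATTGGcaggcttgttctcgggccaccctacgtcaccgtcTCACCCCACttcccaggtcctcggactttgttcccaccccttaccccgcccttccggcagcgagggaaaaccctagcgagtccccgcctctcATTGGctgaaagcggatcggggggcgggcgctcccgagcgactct
Sc5d: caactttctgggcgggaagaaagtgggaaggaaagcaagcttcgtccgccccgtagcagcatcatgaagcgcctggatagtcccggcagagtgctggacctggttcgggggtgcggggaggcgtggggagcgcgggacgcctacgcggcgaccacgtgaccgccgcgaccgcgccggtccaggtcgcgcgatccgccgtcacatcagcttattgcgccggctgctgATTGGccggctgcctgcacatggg
Ebp: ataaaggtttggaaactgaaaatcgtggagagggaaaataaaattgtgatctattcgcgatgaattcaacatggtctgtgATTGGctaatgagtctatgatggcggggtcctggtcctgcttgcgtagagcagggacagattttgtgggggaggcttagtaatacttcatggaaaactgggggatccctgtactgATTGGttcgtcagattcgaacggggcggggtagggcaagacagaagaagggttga

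To ask whether these genes differed between WT and CD274-null LICs, log2(FPKM + 0.5) was compared with limma over the 13230 genes whose FPKM averaged 0.5 or more. Of the 33 genes, 31 passed this filter and Scd1 and Abca1 did not. None of the 31 was called at an unadjusted p under 0.01 together with a fold above 1.5. Over all tested genes, 2.39% were called higher and 1.24% lower in CD274-null; after quantile normalization, 253 genes were called higher and 210 lower, against 316 and 164 as deposited. None had an adjusted p under 0.05 either, which 0.0756% of all tested genes had, and the adjusted p of the 31 ran from 0.296 to 0.987 (limma, Benjamini-Hochberg). At an unadjusted p under 0.05, Acat2 was higher and Hsd17b7, Sc5d and Stard4 were lower, against 8.04% of all tested genes higher and 5.70% lower. On the recovered reads, limma's voom called 1 of the genes, Hsd17b7, and the linear model without moderation of the variance called 1, Sc5d.

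The libraries of both groups can also be compared by whether their values overlap. In 13 of the 31 genes both CD274-null values lay below both WT values, against 21.8% of all tested genes, and in 5 both lay above, against 25.6%. The 13 lower genes are Srebf1, Srebf2, Insig2, Hmgcs1, Idi1, Sqle, Cyp51, Msmo1, Hsd17b7, Sc5d, Stard4, Acly and Acaca. The 5 higher genes are Acat2, Pmvk, Tm7sf2, Ebp and Nr1h3. The median log2 fold change of the 31 genes was -0.12, against 0.01 for all tested genes. The 95% interval of a gene's log2 fold change was 1.53 wide in the median over the 31 genes and at least 0.96 wide in each.

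**Figure D1:**
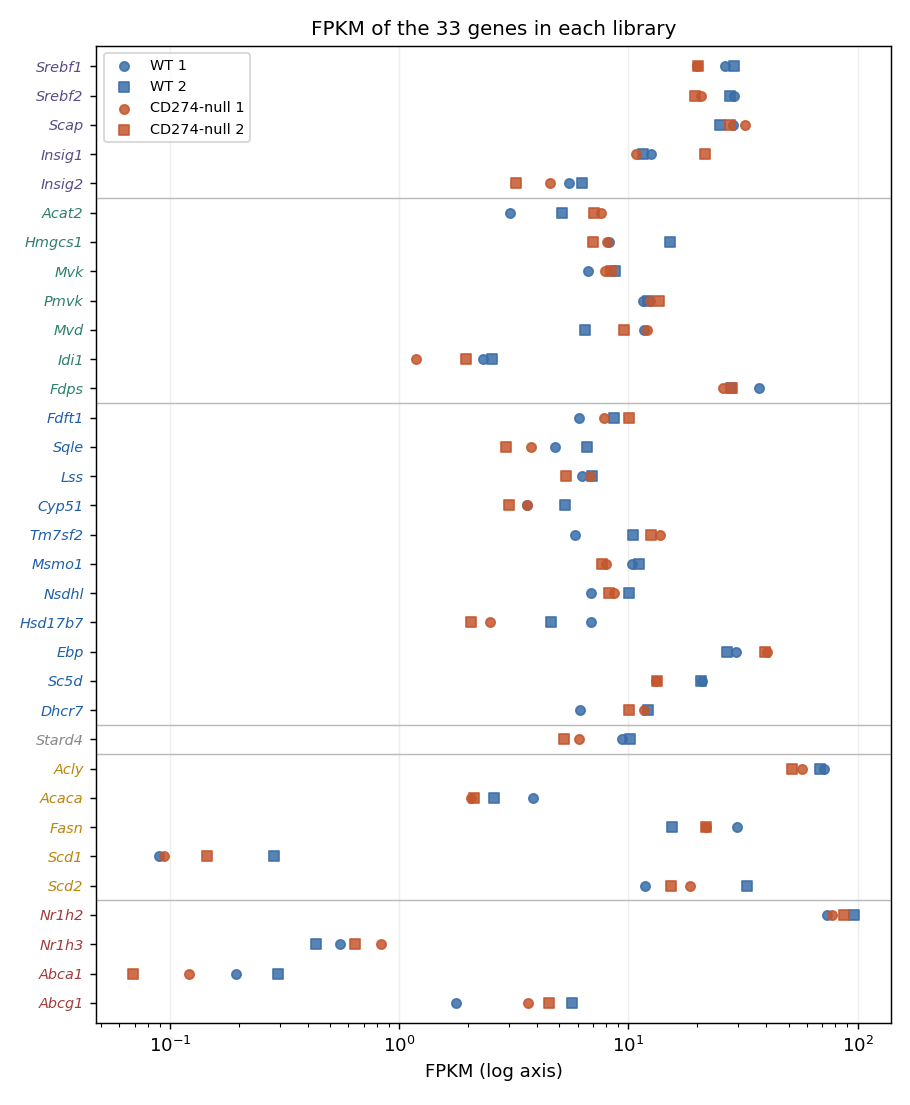
FPKM of each of the 33 genes (rows, grouped by role) on a log axis, 1 point per library, blue for WT and orange for CD274-null, circles for replicate 1 and squares for replicate 2. The levels run from a mean of 0.153 (Scd1) to 83.8 (Nr1h2), and both orange points lie left of both blue ones in rows such as Sc5d, Stard4 and Srebf2.

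Both SREBP genes were lower in the libraries labelled CD274-null, by about the same proportion, but neither passed the test. Srebf2, whose product drives cholesterol synthesis, had an FPKM of 28.9 and 27.8 in WT against 20.6 and 19.5 in CD274-null. Srebf1, whose product drives mainly fatty acid synthesis, had 26.3 and 29.0 in WT against 19.9 and 20.2 in CD274-null. In each gene the replicates lay close together and the groups did not overlap. The log2 difference was -0.49 for Srebf2 (standard error 0.21 in limma, unadjusted p = 0.0558, adjusted p = 0.373) and -0.46 for Srebf1 (standard error 0.21 in limma, unadjusted p = 0.0722, adjusted p = 0.404). The ratio of Srebf1 to Srebf2 within a library stayed between 0.911 and 1.04 in the 4 libraries, so that both genes stood at nearly the same level per length in each of them. The transcripts of these genes are rich in G and C (59.8% for Srebf1 and 57.8% for Srebf2), and fold changes followed GC content across the tested genes (Spearman's rho 0.265 over 11435 genes, which are not independent). With each library corrected for GC content, their log2 fold changes were -0.67 and -0.68, with unadjusted p = 0.0168 and 0.0185 and an adjusted p of 0.352 in limma for both.

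The partners of the SREBPs differed among themselves. Scap, which escorts the SREBPs, had 28.5 and 25.1 FPKM in WT against 32.3 and 27.8 in CD274-null, and these ranges overlapped (log2 fold change 0.16, 95% interval -0.37 to 0.69, and 0.05 to 0.27 with each library left out). Insig2, one of the retention proteins, had 5.48 and 6.26 in WT against 4.52 and 3.22 in CD274-null, without overlap, and the difference on the log2 scale was -0.56 (standard error 0.32, adjusted p = 0.473 from limma), or -0.34 without CD274-null replicate 2. Insig1, the retention protein that is itself an SREBP target, had 12.5 and 11.6 in WT against 10.8 and 21.6 in CD274-null. Insig1 was therefore high in CD274-null replicate 2 alone, at 569 recovered reads against 252 in replicate 1, and without that library its log2 fold change turned from 0.33 to -0.15. The ratio of Insig1 to Insig2 was 2.28, 1.85 and 2.38 in the other libraries and 6.70 in CD274-null replicate 2.

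**Figure D2:**
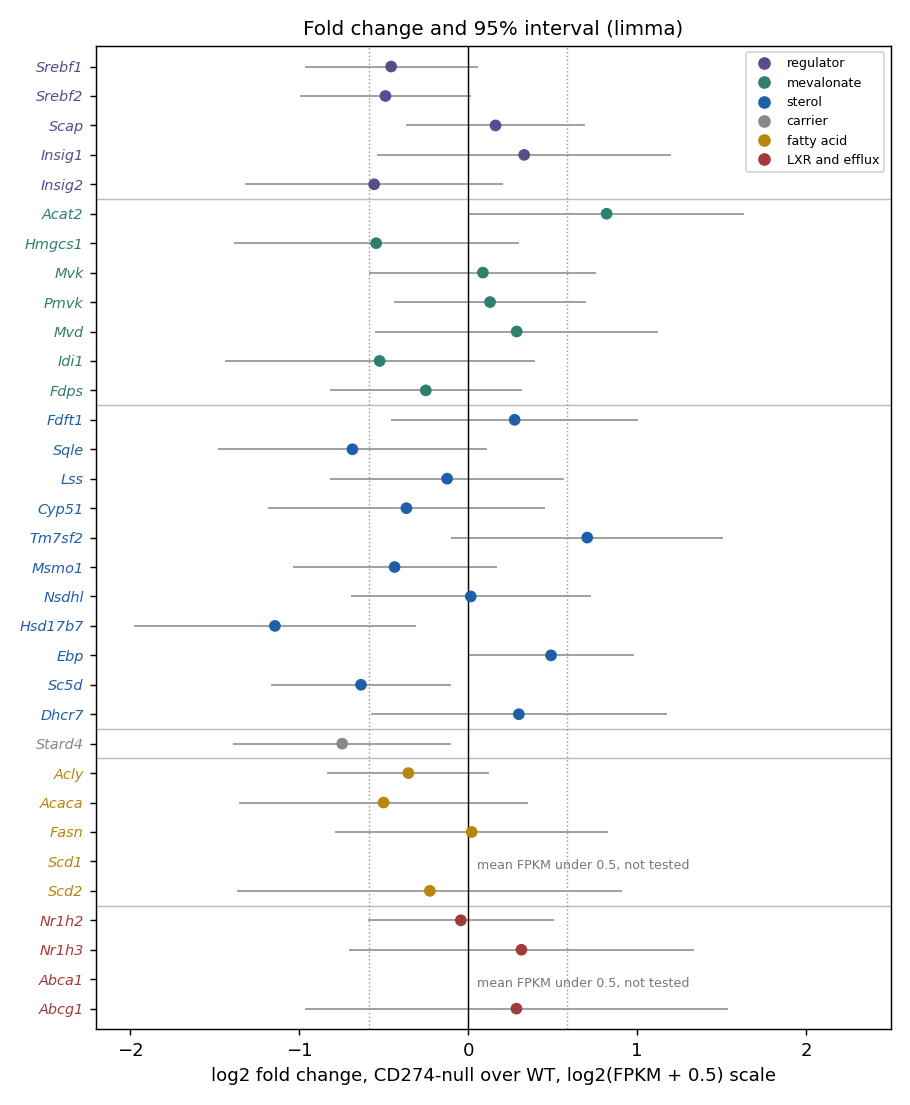
Log2 fold change of each tested gene, CD274-null over WT on the log2(FPKM + 0.5) scale, with its 95% interval from limma as a grey line, coloured by role, and dotted lines at a fold of 1.5. Of the 31 intervals, those of Hsd17b7, Sc5d and Stard4 lie below 0 and that of Acat2 above it, while the others include 0.

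The 7 genes of the early pathway, from acetyl-CoA to farnesyl diphosphate, were split: 4 were higher and 3 lower in CD274-null, with a median log2 fold change of 0.09. Acat2, the cytosolic thiolase that makes acetoacetyl-CoA, had an FPKM of 3.04 and 5.11 in WT against 7.625 and 7.11 in CD274-null, the largest positive difference among the 31 genes (log2 fold change 0.82, standard error 0.34 in limma, unadjusted p = 0.0492, adjusted p = 0.362). The recovered reads of Acat2 numbered 73 and 108 in WT against 140 and 147 in CD274-null. Of the distinct 50-base stretches of the Acat2 transcripts, 39.1% also occur in Acat3, a near-identical neighbour, and 11.2% in Tcp1 on the opposite strand, so its reads could have been split with them. Acat3 had 27.7, 22.9, 31.7 and 25.3 FPKM in the order WT 1, WT 2, CD274-null 1 and CD274-null 2, and overlapped between the groups. Hmgcs1, the HMG-CoA synthase, took the opposite direction, with 8.24 and 15.2 in WT against 8.06 and 7.04 in CD274-null. Its value in WT replicate 1 lay next to the CD274-null values and only WT replicate 2 stood apart (log2 fold change -0.54, -0.12 without that library and -0.97 without WT replicate 1, adjusted p = 0.523 from limma with all 4). The ratio of Acat2 to Hmgcs1 was 0.369 and 0.336 in WT against 0.946 and 1.01 in CD274-null, a pair chosen after the values were seen.

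The following steps showed smaller differences. Idi1, the isomerase of isopentenyl diphosphate, had 2.32 and 2.53 FPKM in WT against 1.18 and 1.96 in CD274-null, on 30 to 77 recovered reads, and the difference on the log2 scale was -0.52 (adjusted p = 0.562 from limma), or -0.25 without CD274-null replicate 1 and -0.80 without CD274-null replicate 2. Of its 50-base stretches, 25.3% occur elsewhere, mostly in processed pseudogenes. Pmvk, the phosphomevalonate kinase, had 11.6 and 12.1 in WT against 12.5 and 13.6 in CD274-null, a difference of 0.13 on the log2 scale that did not overlap between groups and was no larger than its standard error of 0.23, and was 0.07 without CD274-null replicate 2. Mvk (mevalonate kinase), Mvd (mevalonate decarboxylase) and Fdps (farnesyl diphosphate synthase) overlapped between groups, with log2 fold changes of 0.09, 0.29 and -0.25. Their 95% intervals reached from -0.58 to 0.76 for Mvk, from -0.55 to 1.12 for Mvd and from -0.82 to 0.32 for Fdps. The value of Fdps was -0.05 without WT replicate 1 and -0.45 without WT replicate 2. Fdps shares 26.2% of its stretches with a neighbouring transcript and pseudogenes.

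From squalene on, 11 genes were tested, 5 higher and 6 lower in CD274-null, with a median log2 fold change of -0.12. Hsd17b7, which reduces the keto group left after removal of the methyl groups at C4, differed most among all 31 genes with all libraries. Without WT replicate 1 its log2 fold change was -0.88, against -0.97 for Hmgcs1. Its FPKM was 6.86 and 4.595 in WT against 2.497 and 2.06 in CD274-null, from 363, 214, 101 and 94 recovered reads. The CD274-null mean was 0.398 of the WT mean, and the log2 difference was -1.14 (standard error 0.34 in limma, unadjusted p = 0.0151, adjusted p = 0.296). The WT libraries differed from each other 1.49-fold, less than the groups did. None of its 50-base stretches occurs in another annotated transcript, and its promoter entry holds CCAAT at -165, -73 and -12.

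Sc5d, the desaturase that acts just before Dhcr7, had close replicates in both groups. It had an FPKM of 21.0 and 20.7 in WT against 13.2 and 13.4 in CD274-null, a mean of 0.636 of WT, and the difference on the log2 scale was -0.63 (standard error 0.22 in limma, unadjusted p = 0.0263, adjusted p = 0.324). Ebp, the sterol isomerase that acts just before Sc5d, went the other way with 29.5 and 27.0 in WT against 40.3 and 39.5 in CD274-null (log2 fold change 0.49, standard error 0.20 in limma, unadjusted p = 0.0503, adjusted p = 0.364). The ratio of Ebp to Sc5d within a library, which no scaling of libraries can change, was 1.41 and 1.30 in WT against 3.06 and 2.96 in CD274-null, a pair chosen after the values were seen. Ebp lies on the X chromosome, and Xist was higher in both CD274-null libraries, as given above; the part of X-linked expression in the values of Ebp was not tested. Nsdhl, also X-linked, overlapped between groups with 6.86 and 10.1 in WT against 8.62 and 8.24 in CD274-null (log2 fold change 0.02).

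Sqle, Msmo1 and Cyp51 were also lower in both CD274-null libraries without passing the test. Sqle, the squalene epoxidase and a rate-limiting step, had 4.78 and 6.61 FPKM in WT against 3.74 and 2.92 in CD274-null (log2 fold change -0.69, standard error 0.33 in limma, unadjusted p = 0.0799, adjusted p = 0.414). Msmo1, the C4 methyl oxidase, had 10.4 and 11.1 in WT against 7.997 and 7.65 in CD274-null (log2 fold change -0.44, adjusted p = 0.478 from limma). Cyp51, the lanosterol demethylase, had 3.614 and 5.30 in WT against 3.611 and 2.999 in CD274-null, so that WT replicate 1 and CD274-null replicate 1 were almost equal (log2 fold change -0.37, adjusted p = 0.655 from limma). Without WT replicate 2 its value was -0.12, and without WT replicate 1 it was -0.61.

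Tm7sf2, a sterol reductase that acts after Cyp51, was the remaining gene higher in both CD274-null libraries, with 5.845 and 10.5 FPKM in WT against 13.7 and 12.6 in CD274-null. Its log2 difference of 0.70 (standard error 0.33 in limma, unadjusted p = 0.0758, adjusted p = 0.410) was 0.31 without WT replicate 1, in which the gene was low, and 1.10 without WT replicate 2. Tm7sf2 shares 9.9% of its 50-base stretches with Vps51, an overlapping gene that had 28.7 and 30.2 FPKM in WT against 32.9 and 34.0 in CD274-null. Fdft1 (squalene synthase), Lss (lanosterol synthase) and Dhcr7 (the last reductase of the branch to cholesterol) overlapped between groups, with log2 fold changes of 0.28, -0.12 and 0.30. Dhcr7 was 6.17 in WT replicate 1 and 12.1 in WT replicate 2, a wider gap than that between the groups. The value of Fdft1 ran from 0.04 without WT replicate 1 to 0.51 without WT replicate 2. Fdft1 overlaps Ctsb on the opposite strand over 17.2% of its stretches, and the kit did not mark strand.

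Over the 18 enzymes of cholesterol synthesis, 9 were higher and 9 lower in CD274-null, and the median log2 fold change was -0.05. Markers of proliferation, a state that draws on this pathway, had a summed FPKM of 670 and 499 in WT against 701 and 744 in CD274-null over 8 genes. Of these, 2 were higher at an unadjusted p under 0.05 in limma, against 8.04% of all tested genes, 4 lay higher in both CD274-null libraries, against 25.6%, and 1 was called higher, against 2.39%, Top2a, at 66.3 and 47.0 FPKM in WT against 101.7 and 108 in CD274-null. That call was lost with voom, without the filter and without moderation of the variance, and Ccnb1 and Aurkb had log2 fold changes of -0.18 each. Their part in the values of the enzymes was not tested.

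**Figure D3:**
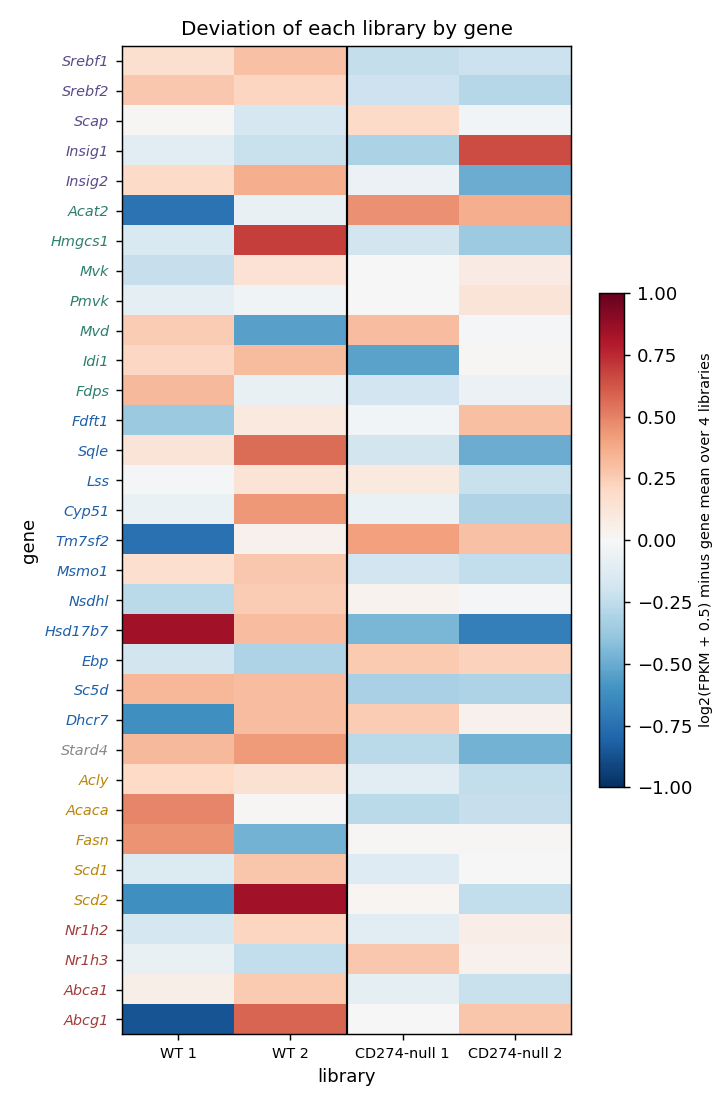
Deviation of each library from the gene's mean over the 4 libraries, in log2(FPKM + 0.5), for the 33 genes in pathway order, red above and blue below the mean, with a black line between WT and CD274-null. Sc5d, Stard4, Srebf1 and Srebf2 are red in both WT columns and blue in both CD274-null columns, while Scd2 and Abcg1 differ most between the WT libraries.

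Stard4, the soluble carrier that moves cholesterol between membranes and is an SREBP target, was lower in CD274-null. It had an FPKM of 9.41 and 10.1 in WT against 6.06 and 5.215 in CD274-null, from 325, 308, 160 and 155 recovered reads. The groups did not overlap and the replicates lay close, the log2 difference being -0.75 (standard error 0.27 in limma, unadjusted p = 0.0300, adjusted p = 0.333).

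Among the fatty acid genes, Acly and Acaca were lower in both CD274-null libraries and Fasn was not. Acly, which makes cytosolic acetyl-CoA from citrate, was the highest of the synthesis genes with 71.1 and 68.6 FPKM in WT against 57.2 and 51.9 in CD274-null (log2 fold change -0.35, standard error 0.20 in limma, unadjusted p = 0.122, adjusted p = 0.468). Acaca, the acetyl-CoA carboxylase, had 3.83 and 2.60 in WT against 2.05 and 2.12 in CD274-null (log2 fold change -0.50, adjusted p = 0.554 from limma), and its value was -0.26 without WT replicate 1. Of its stretches, 30.4% occur elsewhere, mostly in a processed pseudogene. Fasn, the fatty acid synthase, was 29.6 in WT replicate 1 and 15.5 in WT replicate 2 and lay between them in CD274-null, at 21.8 and 21.7, so its log2 fold change of 0.02 hides a 1.92-fold difference within WT.

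The desaturase genes differed from each other in level and in spread. Scd2 had 11.8 and 33.03 FPKM in WT against 18.5 and 15.3 in CD274-null. The WT libraries thus differed 2.81-fold and enclosed the CD274-null values, and the log2 fold change of -0.23 had a 95% interval from -1.37 to 0.91. Scd1, the main desaturase of liver and fat, had only 0.08935, 0.284, 0.0935 and 0.145 FPKM, from 5, 14, 4 and 7 recovered reads, and was not tested. The summed FPKM of the 7 neutrophil markers given above was also highest in WT replicate 1 and lowest in WT replicate 2, and that of the erythroid markers was highest in WT replicate 2, at 2.20, 55.2, 4.50 and 0.152 in the order WT 1, WT 2, CD274-null 1 and CD274-null 2. Hmgcs1, Scd2 and Abcg1 were each highest in WT replicate 2, but so were many other members, among them Srebf1, Sqle, Dhcr7 and Nr1h2. The median deviation over the 31 tested genes was also highest in that library, as given above. The part of these markers in the values of the genes was not tested. In bulk samples fewer cells of a type and less RNA per cell cannot be told apart.

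The LXR genes differed widely in level. Nr1h2, which encodes the widely expressed LXRβ, had 73.9 and 96.9 FPKM in WT against 77.4 and 87.1 in CD274-null, the highest level of the 33 genes, and its groups overlapped (log2 fold change -0.04, 95% interval -0.60 to 0.51). Nr1h3, which encodes LXRα of liver and macrophages, had 0.552 and 0.434 in WT against 0.833 and 0.641 in CD274-null, from 9 to 15 recovered reads per library. Its groups did not overlap, but the log2 fold change of 0.32 had a standard error of 0.42 (adjusted p = 0.770 from limma), and was 0.20 without CD274-null replicate 1. Under other settings it ran from 0.098 with quantile normalization and 0.15 with the GC correction to 0.55 with voom on recovered reads. Within a library Nr1h2 stood between 93.0 and 223 times higher than Nr1h3.

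Of the efflux transporters, Abcg1 was above the filter and Abca1 below it. Abcg1 had 1.77 and 5.69 FPKM in WT against 3.65 and 4.52 in CD274-null, so the WT libraries differed 3.22-fold and enclosed the others. Without WT replicate 1 its log2 fold change turned from 0.29 to -0.44. Abca1 had 0.194 and 0.297 in WT against 0.121 and 0.0685 in CD274-null, from 23, 31, 11 and 7 recovered reads, did not overlap between groups and was below the filter. Its fold change, tested without the filter, was -0.32 on the log2(FPKM + 0.5) scale, which understates changes of so low a gene (unadjusted p = 0.0715, adjusted p = 0.471 from limma). The summed FPKM of 10 macrophage markers was 168 and 187 in WT against 123 and 151 in CD274-null, mostly from Vcam1, Adgre1 and Csf1r. Vcam1 was called lower, a call lost after the GC correction and without moderation of the variance. The log2 fold changes of Adgre1 and Csf1r were 0.10 and 0.42. Cd163 (0.539 and 1.64 in WT against 0.478 and 0.447 in CD274-null) and Mertk (0.535 and 0.829 against 0.318 and 0.0283) were lower without overlap. Siglec1 was higher without overlap, at 0.0947 and 0.0308 against 0.106 and 0.314. Mrc1 overlapped between groups, and C1qa, C1qb and C1qc overlapped and each stayed under 4 FPKM. The part of these markers in the values of Abca1 and Nr1h3 was not tested.

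**Figure D4:**
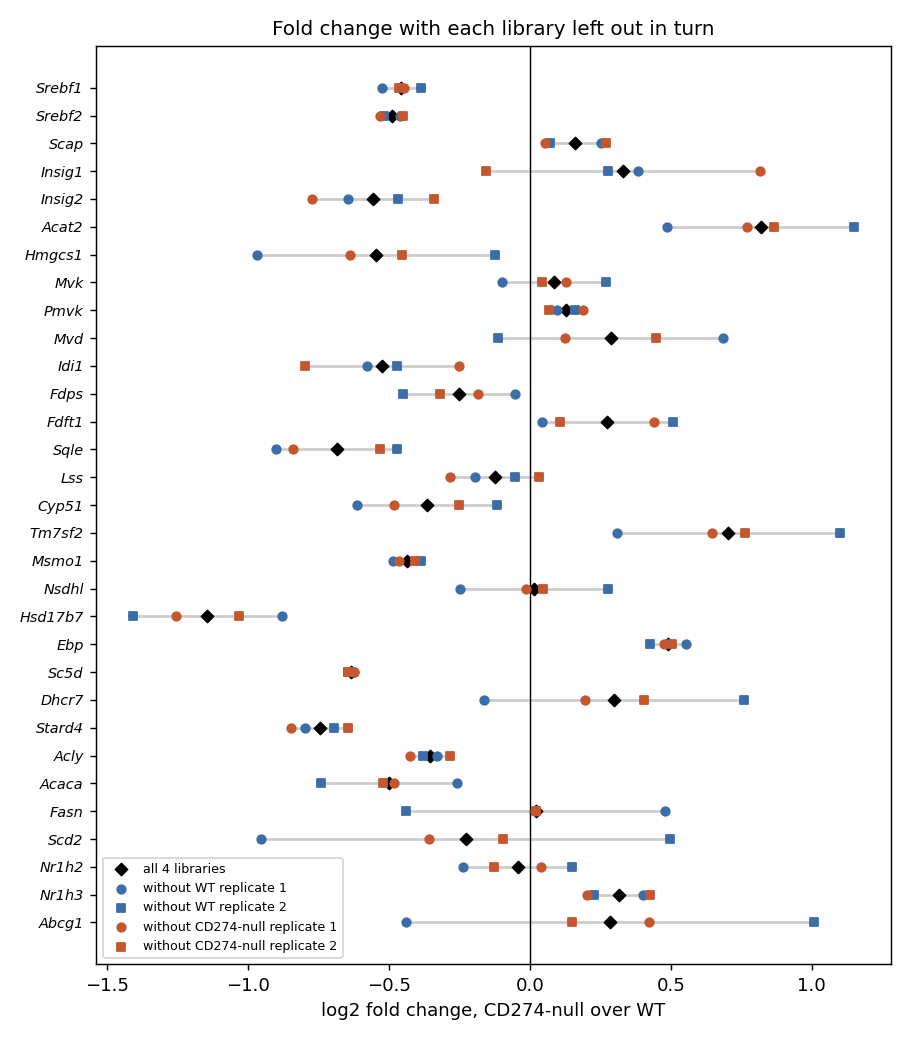
Log2 fold change of each tested gene with all 4 libraries (black diamonds) and with each library left out in turn (blue, a WT library left out; orange, a CD274-null library left out). Sc5d stays between -0.65 and -0.62, while Scd2 runs from -0.95 to 0.50.

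The stability of each value was examined by leaving out each library in turn. The direction held in 21 of the 31 genes and turned in 10, Insig1, Mvk, Mvd, Lss, Nsdhl, Dhcr7, Fasn, Scd2, Nr1h2 and Abcg1. Among those that held, the log2 difference lay between -0.65 and -0.62 for Sc5d, between -0.53 and -0.45 for Srebf2, between -0.85 and -0.65 for Stard4, between -1.41 and -0.88 for Hsd17b7 and between 0.43 and 0.56 for Ebp. That of Acat2 ran from 0.49 without WT replicate 1 to 1.15 without WT replicate 2. With either CD274-null library left out, none of the 31 genes had an unadjusted p under 0.05 in limma. In these fits the lone CD274-null library is assumed to vary like the WT libraries.

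**Figure D5:**
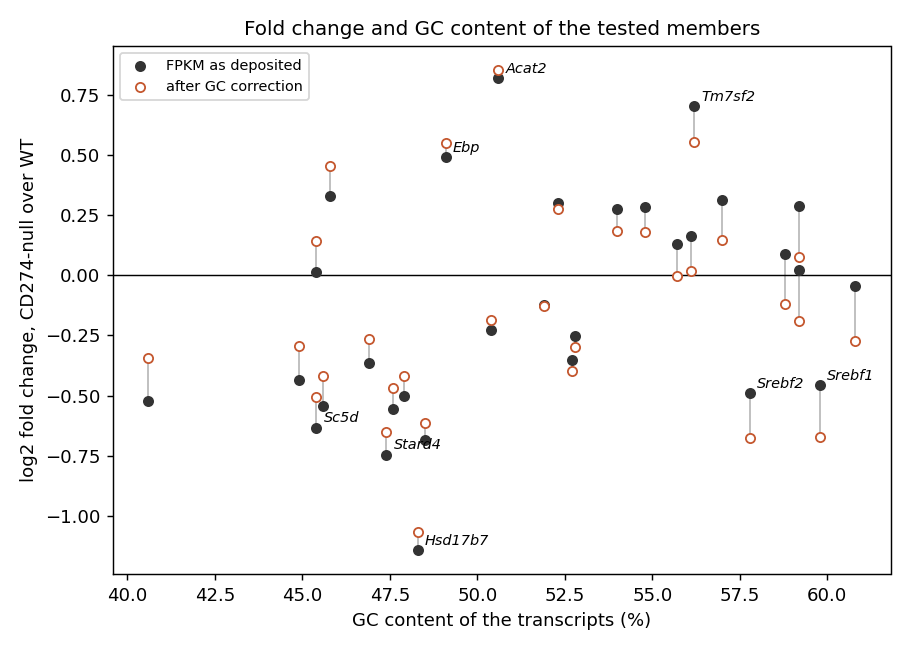
Log2 fold change of the 31 tested genes against the GC content of their transcripts, as deposited (filled) and after correction of each library for GC content (open), joined by a grey line. The correction raises Sc5d (45.4% GC) from -0.63 to -0.51 and lowers Srebf1 (59.8% GC) from -0.46 to -0.67.

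The correction for GC content moved the genes apart by composition. After it, 2 of the 31 genes were higher at an unadjusted p under 0.05, Acat2 and Ebp, against 7.13% of all 11435 corrected genes. At the same threshold 4 were lower, Hsd17b7, Srebf1, Srebf2 and Stard4, against 5.12%. None of the 31 was called, against 1.71% called higher and 1.07% called lower over all corrected genes. Sc5d, with a GC content of 45.4%, went from -0.63 to -0.51 (unadjusted p = 0.053 in limma). Hsd17b7 (48.3%) went from -1.14 to -1.07 and Stard4 (47.4%) from -0.75 to -0.65. Among genes whose groups differed less, the correction moved Scap from 0.16 to 0.017, Mvd from 0.29 to 0.076, Idi1 from -0.52 to -0.35, Nr1h2 from -0.04 to -0.27, Nsdhl from 0.02 to 0.15 and Abcg1 from 0.29 to 0.18. It turned the direction of Mvk (0.09 to -0.12), Pmvk (0.13 to -0.0034) and Fasn (0.02 to -0.19).

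Around these genes, a list of 34 further genes was examined, of SREBP cleavage and turnover, isoprenoid branches, fatty acid elongation and desaturation, sterol esterification and transport, and LXR partners. Of these, 32 were tested, and 1 was higher and 2 were lower at an unadjusted p under 0.05, against the 8.04% and 5.70% of all tested genes. None was called, against 2.39% higher and 1.24% lower, and the 3 genes are given as values only. The median log2 fold change was -0.08. Mylip, an LXR target that encodes a ubiquitin ligase for lipoprotein receptors, had 11.1 and 11.7 FPKM in WT against 21.5 and 84.1 in CD274-null, so most of its log2 difference of 1.86 (adjusted p = 0.303 from limma) came from CD274-null replicate 2, the library in which Insig1 was also high. Gpam, the first acyltransferase of glycerolipid synthesis and an SREBP1 target, had 6.39 and 5.21 in WT against 3.01 and 2.02 in CD274-null (log2 fold change -1.08, unadjusted p = 0.0180, adjusted p = 0.300 from limma). Rxra, the partner receptor of the LXRs, had 11.3 and 8.65 in WT against 5.88 and 5.80 in CD274-null (log2 fold change -0.71, unadjusted p = 0.0410, adjusted p = 0.349 from limma). The remaining tested genes of the list were each above an unadjusted p of 0.05, among them Mbtps1 and Mbtps2, whose products cleave the SREBPs, with log2 fold changes of 0.02 and -0.73. Mbtps2 was lower in both CD274-null libraries. It is X-linked, and the part of X-linked expression in its values was not tested.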

How the data were processed

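RNA of 4 libraries, 2 WT and 2 CD274-null, was sequenced from TruSeq v2 libraries, aligned to GRCm38 with TopHat 2.0.12 and deposited by the authors as FPKM per NCBI gene number, without log transformation; the submitters' processing notes also name CASAVA 1.8.2. The program and gene lengths behind FPKM are not given in the sources used here. Symbols came from RefSeq (GRCm38.p6) for 25275 of 27179 genes. Reads were recovered, up to a common factor, from the whole-number ratios of a gene's FPKM (17083 genes, within 0.01 of a whole read; 0 sample columns unassigned). Because a factor common to all libraries is lost, they are lower bounds.

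The comparison used limma 3.58.1 in R 4.3.3 (eBayes with trend, two-sided) on log2(FPKM + 0.5) for genes averaging 0.5 FPKM or more, with Benjamini-Hochberg adjustment over 13230 genes, and was tested on simulated data. GC content and shared 50-base stretches came from GENCODE transcripts in Python 3.11.15. The members and lists were chosen with earlier results of these data known. All 33 members were named; members whose groups did not overlap, or with p under 0.05, were given in every library, as were genes of the further pathway list with p under 0.05; of the marker lists, named genes were chosen after their values were seen. Alternatives were pseudocounts of 0.1 and 1, omitting the filter, a filter at 5 FPKM, quantile and median scaling, no trend, no moderation, a replicate block, a GC correction (loess, span 0.3), voom on recovered reads and leaving out each library.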

Additional observations from a re-analysis of the deposited data

How the results depend on the processing

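No member was called in the comparison as made, and 1 was called without moderation of the variance (Sc5d) and 1 with voom on recovered reads (Hsd17b7); under the other settings, leaving out each library included, the count was 0. The number of members with an unadjusted p under 0.05 was 4 as made, 7 with quantile normalization, with equal medians and without moderation, and 0 to 4 with each library left out. The median over the cholesterol synthesis enzymes was 0.11 with a mean FPKM of at least 5, where fewer genes were tested, and -0.18 to 0.04 with each library left out. Of 364 values of members under other settings than leaving out a library, 9 turned direction: Mvk was -0.12, Pmvk -0.0034 and Fasn -0.19 with the GC correction, with or without the replicate block, Nsdhl was -0.026 with quantile normalization and -0.0081 with equal medians, and Fasn was -0.0028 with equal medians. Of the 124 values with a library left out, 12 turned; the ranges were -0.15 to 0.82 for Insig1, -0.10 to 0.27 for Mvk, -0.11 to 0.69 for Mvd, -0.28 to 0.034 for Lss, -0.25 to 0.28 for Nsdhl, -0.16 to 0.76 for Dhcr7, -0.44 to 0.48 for Fasn, -0.95 to 0.50 for Scd2, -0.24 to 0.15 for Nr1h2 and -0.44 to 1.01 for Abcg1. Cd274 was -0.0026 with quantile normalization and -0.51 to 0.68 with each library left out. The cause of these shifts was not tested.

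The deviations of same-numbered libraries had a correlation of -0.02 across genes. Each group gives only the difference between its 2 libraries, so this value cannot decide whether the replicate numbers pair libraries across groups. With the replicate block, 0 members were called and 2 had an unadjusted p under 0.05, Hsd17b7 and Sc5d. Over all genes, 480 were called as made, 526 with the replicate block, 401 with the replicate numbers crossed (an alternative added after seeing the data), 317 with the GC correction, 253 with both, 170 without moderation and 147 to 634 with each library left out. At an adjusted p under 0.05 there were 10 genes as made, 21 with the block and 0 with the numbers crossed. Mylip, of the further pathway list, was called with the block and not as made.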
